A study of Mus musculus with 4 samples.

Results

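T cells of the small intestine were compared with T cells of the cecum, both taken from the intraepithelial layer, the sheet of lymphocytes that lies between the cells lining the gut. The cells were selected on measured values: a barcode was counted as a T cell when it held at least 2 UMIs over the CD3 chain genes Cd3d, Cd3e and Cd3g and 0 UMIs over Cd79a and Cd79b of B cells, Lyz2 of myeloid cells, Cpa3 of mast cells and Ncr1 of natural killer cells. A UMI is one captured transcript molecule. The rule gave 1988 T cells of 3171 barcodes (62.7%) in the small intestine and 3088 of 4244 (72.8%) in the cecum, 5076 in all of the 14378 barcodes of the series. Both groups were uninfected C57BL/6 mice, sorted as live CD45.2-positive leukocytes and profiled with the 10x Genomics 3′ chemistry. Each tissue was 1 library, and the labels gave no age, sex or number of animals. The extraction text was the same in all records and spoke of colons, so the tissue labels were used. Tissue, animal and library could therefore not be told apart, and no p-value was computed: every interval below is a 95% interval that covers counting error only.

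Intraepithelial T cells fall into a group whose receptor is made of gamma and delta chains and a group that carries alpha and beta chains, and in the small intestine many of both kinds bear CD8 as a pair of alpha chains. Such cells are long-lived residents held in the epithelium by the CD103 integrin, which binds E-cadherin, are drawn to the small intestine through the chemokine receptor CCR9, and carry granzymes that kill target cells. Recirculating T cells rely instead on the transcription factor KLF2 and the sphingosine receptor S1PR1, which lets them leave tissue. The comparison asks how far these programs differ between the small intestine and the cecum, first over all T cells and then within the 2 receptor groups.

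The median depth was 2286.5 UMIs per T cell in the small intestine and 1740 in the cecum, and the summed T cells held 5162755 and 5961598 UMIs. The 12 T cell marker genes summed to 12218 CPM (a gene's UMIs scaled to the summed UMIs of all T cells of the library) in the small intestine and 12525 in the cecum. The rule itself selects on 3 of them, and the other 9 summed to 6201 and 7179 CPM with 0 of them at 0. The libraries also differed in transcripts of other cells. The small intestine T cells held more transcripts of plasma cells (1054 against 218 CPM over 11 markers, 1 and 3 of them at 0), of B cells (1290 against 565 CPM over 15 markers, Cd79a and Cd79b at 0 by the rule in both and Pax5 in the cecum) and of dendritic cells (851 against 282 CPM over 11 markers, 0 and 3 of them at 0). Ccr9 and Itgax, described below among homing and retention genes, make up much of the dendritic sum, and the other 9 markers summed to 363 and 215 CPM. Epithelial markers summed to 242 and 129 CPM, with 3 and 18 of 29 at 0, and macrophage markers to 20.9 and 8.89 CPM, with 5 and 7 of 13 at 0. Epcam alone gave 125 and 121 CPM of the epithelial sums, and Ighm alone gave 379 and 424 CPM of the B cell sums. The remaining members of both lists therefore differed by a larger ratio than the sums. Mast cell markers stood at 193 and 189.9 CPM, with 2 and 6 of 13 at 0, Cpa3 by the rule in both. Kit alone gave 158 and 160 CPM of these sums. Cma1, Tpsb2, Tpsab1 and Fcer1a were among those at 0 in the cecum and not in the small intestine. The ribosomal transcript Rn18s stood at 8026 CPM in the small intestine and 2309 in the cecum. Their part in the results was not tested. Of the genes tested, 104 whose level in T cells was under 20% of that in another cell class of the same library, such as Igkc, Jchain and Cd74, were set apart: they include 21 of the genes called higher and 10 of those called lower below, and where one is named this is said. Of all barcodes 1 was shared by the 2 libraries, and 0 were T cells in both. At the edge of the rule, 9 small intestine and 73 cecal T cells had exactly 2 CD3 UMIs, while 15 and 33 barcodes with no excluded UMI had 1 and were left out.

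Of 4552 genes tested, 187 were at least 2-fold higher in the small intestine (4.11%) and 139 were at least 2-fold lower (3.05%), while the median gene differed by a log2 ratio of -0.06. Without exclusion genes in the rule these counts were 146 and 164, so the share of calls that were higher was 47.1% in place of 57.4%, and after median-of-ratios scaling they were 210 and 125. Granzyme genes, 3 chemokine genes, 5 genes of epithelial retention and Ccr9 were higher in the small intestine, and 8 genes of recirculation and 5 killer-type receptor genes were lower. A gene was tested when it reached 50 CPM on either side and 20 UMIs over both. The shares of 4.11% and 3.05% are those to set beside each list count over all T cells below.

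**Figure D1:**
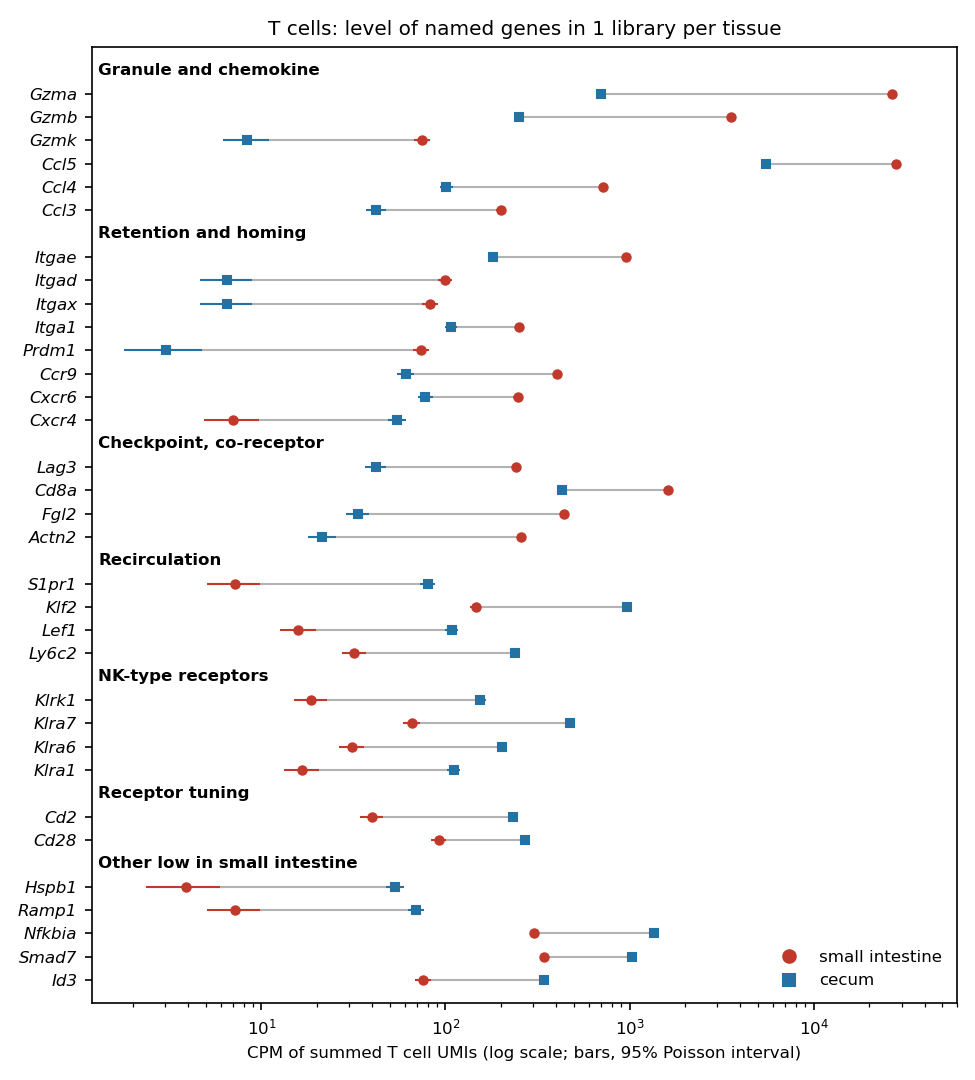
Levels of named genes in T cells of the small intestine (circles) and cecum (squares), in CPM of summed UMIs on a log axis, with 95% Poisson intervals and 1 library per tissue. Gzma runs from 700.5 CPM in the cecum to 26713 in the small intestine, and the recirculation genes S1pr1, Klf2 and Lef1 lie the other way round.

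Granzyme genes were among the genes higher in the small intestine. Gzma, the gene of granzyme A on chromosome 13 (GRCm38.p6, 113093824 to 113100981), stood at 26713 CPM in the small intestine and 700.5 CPM in the cecum, a ratio of 38.1 (37.0 to 39.3). Gzmb, which encodes the main apoptosis-inducing granzyme, stood at 3560.3 and 251 CPM, a ratio of 14.2 (13.4 to 14.9). Gzmk, a further granzyme with a different cleavage preference, stood at 74.4 and 8.39 CPM. All 3 kept their direction in both receptor groups. Among 14 tested genes of the cytotoxic granule list, 4 were at least 2-fold higher (the granzymes and Cst7, an inhibitor of granule proteases, at 368 and 130 CPM) and 1 was lower. The lower one was Ctla2a, which encodes an inhibitor of cysteine proteases and stood at 26.9 against 187 CPM. The pore protein gene Prf1 was below the level for testing, at 32.7 and 10.4 CPM. The median log2 ratio of the list was 0.68, beside -0.06 over all genes tested.

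The 250 bases before the RefSeq start of 4 genes higher in the small intestine are printed, so that the regulatory sequence next to the gene can be read beside its value. They were chosen after their ratios were seen and are not the 4 highest ratios. Matches were not counted over the other named genes, so these 4 do not show how common the letters are among them. RefSeq promoters of GRCm38.p6 were found for 91 of the 130 named genes. Capitals mark the letters TGTGGT, the core bound by RUNX factors, or TGANTCA, the site of AP-1 factors, on either strand, with no overlap between them here. The first occurs in 14.0% and the second in 6.75% of the 32851 windows of this length in the table. A match describes letters and not binding. Gzma (chr13:113100982-113101231, minus strand) held 1 RUNX core on the other strand, 50 to 45 bases before the start. Gzmb (chr14:56262335-56262584, minus strand) held 2 RUNX cores, at 93 to 88 and 34 to 29 bases, and 1 AP-1 site at 58 to 52 bases. Prdm1 (chr10:44458749-44458998, minus strand, before a start that lies within the annotated gene span) held 1 AP-1 site at 48 to 42 bases. Fgl2 (chr5:21372423-21372672, plus strand) held 1 AP-1 site at 16 to 10 bases.
Gzma: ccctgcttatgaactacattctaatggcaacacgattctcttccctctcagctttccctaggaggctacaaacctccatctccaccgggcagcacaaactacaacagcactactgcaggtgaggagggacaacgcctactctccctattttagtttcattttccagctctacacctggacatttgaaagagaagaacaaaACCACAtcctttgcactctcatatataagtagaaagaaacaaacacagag
Gzmb: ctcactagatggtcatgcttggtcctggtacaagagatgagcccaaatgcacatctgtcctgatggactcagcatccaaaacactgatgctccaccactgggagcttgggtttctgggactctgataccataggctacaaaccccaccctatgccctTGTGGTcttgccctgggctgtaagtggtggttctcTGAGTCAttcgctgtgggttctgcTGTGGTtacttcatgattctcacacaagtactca
Prdm1: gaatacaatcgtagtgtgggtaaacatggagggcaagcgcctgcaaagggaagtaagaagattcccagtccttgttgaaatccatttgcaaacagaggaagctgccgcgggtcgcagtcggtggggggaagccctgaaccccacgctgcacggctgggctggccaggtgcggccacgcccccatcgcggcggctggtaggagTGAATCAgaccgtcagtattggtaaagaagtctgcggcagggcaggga
Fgl2: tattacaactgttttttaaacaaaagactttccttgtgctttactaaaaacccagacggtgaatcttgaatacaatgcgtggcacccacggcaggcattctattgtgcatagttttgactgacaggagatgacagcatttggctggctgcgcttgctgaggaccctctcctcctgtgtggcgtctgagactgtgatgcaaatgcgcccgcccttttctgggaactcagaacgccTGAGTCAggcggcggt

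In sums of UMIs, fewer cells with a transcript and less of it per cell cannot be told apart, so Gzma was also counted per cell. After each cell was thinned to 1000 UMIs, which left out 0 small intestine and 53 cecal T cells, 66.1% of small intestine T cells (64.0 to 68.2) and 2.54% of cecal T cells (2.01 to 3.16) held a Gzma UMI. Without thinning the shares were 71.6% and 2.91%. At least 10 Gzma UMIs were found in 57.0% and 1.71% of thinned T cells, and the median T cell held 25 and 0. B cells with no CD3 and no Siglech UMI, which should lack the gene, held it in 6.38% of 47 small intestine cells (median depth 2682 UMIs) and 0.225% of 444 cecal cells (median 1227 UMIs before shallow cells were left out). When B cells with CD3 UMIs were let in as well, a class that also takes in doublets, the shares were 45.7% and 1.13%. Gzma also went with depth within each library: from the shallowest to the deepest of 3 groups of cells it stood at 19205, 30062 and 28681 CPM in the small intestine and at 261, 640.2 and 954 CPM in the cecum. The small intestine value was the higher one at each depth. The marker list of natural killer cells and group 1 innate lymphoid cells, which includes Gzma, summed to 28722 and 2259.8 CPM with 3 and 1 of its 10 genes at 0. Ncr1 was at 0 because the rule excludes it, and Klra8 and Klra4 were at 0 in the small intestine alone. Of the other members, Tyrobp stood at 1230 and 481 CPM, Xcl1 at 652 and 860.0 CPM, Klrb1c, which was set apart, at 49.97 and 63.6 CPM, and Eomes at 4.26 and 3.86 CPM. Their part in the result was not tested.

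Chemokine genes followed the same direction. Ccl5, whose product attracts T cells, stood at 27937 CPM in the small intestine and 5509 in the cecum, a ratio of 5.07 (5.01 to 5.13). Ccl4 and Ccl3, which encode related inflammatory chemokines, stood at 717 against 101 CPM and at 199.7 against 41.9 CPM. Of 4 tested chemokine genes 3 were at least 2-fold higher and 0 were lower, and Xcl1, the ligand of XCR1 on cross-presenting dendritic cells, stood at 652 and 860.0 CPM. Over all genes tested 4.11% were at least 2-fold higher and 3.05% were lower. Ccl5 was broadly present in both tissues, with a UMI in 92.9% and 69.1% of thinned T cells.

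Genes of epithelial retention differed at a few members rather than across the list. Itgae, the CD103 chain on chromosome 11 (73090505 to 73147449), stood at 959 CPM in the small intestine and 180.2 CPM in the cecum, a ratio of 5.32 (4.98 to 5.69), and 58.2% and 13.6% of thinned T cells held it. In B cells without CD3 UMIs the Itgae shares were 0% (0 of 47 cells, which allows up to 6.38%) and 0.225%. Itgad and Itgax, which encode the alpha chains of beta-2 integrins, stood at 99.9 against 6.54 CPM and at 82.5 against 6.54 CPM. Itgax was counted as a dendritic marker and not as a member of the residency list. In Trdc-negative cells it was set apart, with small intestine macrophages at 360 CPM. Itga1, the collagen-binding CD49a chain, stood at 252 and 107 CPM. Prdm1, which encodes the residency and effector factor BLIMP-1, stood at 73.8 and 3.02 CPM, a ratio of 24.4 (15.3 to 41.7). Of 22 tested residency genes 5 were at least 2-fold higher and 0 were lower, with a median log2 ratio of 0.23. The 5 were Itgae, Itgad, Itga1, Prdm1 and P2rx7, a receptor for extracellular ATP at 225 and 100 CPM. Runx3, which sets the CD8 and CD103 program, stood at 857 and 777 CPM, and the activation and residency gene Cd69 at 361 and 557 CPM.

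Homing receptors differed in both directions. Ccr9, on chromosome 9 (123767211 to 123783457), stood at 405 CPM in the small intestine and 60.7 in the cecum, a ratio of 6.68 (5.97 to 7.49), with a UMI in 28.5% and 5.27% of thinned T cells. The dendritic class of the small intestine held Ccr9 at 2082 CPM, so it was one of the genes set apart. With 7 more exclusion genes its log2 ratio was 3.09, beside 2.74 by the rule. Cxcr6, which guides effector and resident T cells, was higher in the small intestine, at 247 against 77.8 CPM. Cxcr4, the receptor for the marrow and lymph node chemokine CXCL12, was lower, at 6.97 against 54.7 CPM, and was also set apart, with cecal B cells at 283 CPM. Gpr15, a homing receptor of the large bowel, was below the level for testing, with 2 UMIs in the small intestine and 47 in the cecum.

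Among checkpoint receptors, Lag3, which binds MHC class II and restrains T cells, stood at 242 CPM in the small intestine and 41.8 CPM in the cecum, a ratio of 5.79 (5.05 to 6.66). Lilrb4a, an inhibitory immunoglobulin-like receptor, stood at 91.2 and 17.6 CPM. These were 2 of 9 tested checkpoint genes, and 0 of the 9 were at least 2-fold lower. Of all genes tested 4.11% were higher and 3.05% lower by that fold. Cd160, which encodes a receptor for the herpesvirus entry mediator, stood at 707 and 938 CPM.

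Several genes outside the lists stood among the highest ratios. Stk32c, a serine/threonine kinase gene on chromosome 7 (139103638 to 139213307), had 317 UMIs in small intestine T cells and 9 in cecal T cells, a ratio of 40.7 (21.2 to 89.8). Fgl2, which encodes a fibrinogen-like protein made by T cells, stood at 438 and 33.4 CPM, and a UMI of it was found in 31.6% and 2.67% of thinned T cells. Actn2, which encodes an actin cross-linking protein best known from muscle, stood at 259 and 21.5 CPM. Plek, the pleckstrin gene, was at 107 and 9.23 CPM, Hip1, an endocytic adaptor gene, at 73.8 and 8.39 CPM, and Cela1, an elastase-family gene, at 179 and 22.5 CPM. Tmem273 and the sialyltransferase gene St6galnac2 stood at 50.7 against 3.02 CPM and 53.8 against 7.55 CPM. B cells held Plek too, at 337 CPM in the small intestine.

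Genes of recirculation were lower in the small intestine. S1pr1, on chromosome 3 (115710433 to 115715055), stood at 7.17 CPM in the small intestine and 80.2 CPM in the cecum, 11.2-fold lower (8.0 to 16.1). Klf2, the factor that drives S1pr1, on chromosome 8 (72319062 to 72321654), stood at 146 and 973 CPM, 6.66-fold lower (6.17 to 7.19). Lef1 and Tcf7, which encode related factors of naive and memory-like T cells, stood at 15.9 against 108 CPM and 115 against 250 CPM. Ly6c2, a surface protein gene of circulating T cells, stood at 32.0 and 239 CPM. Of 15 tested genes of this list 8 were at least 2-fold lower and 0 were higher, and the median log2 ratio was -1.11. The other 3 were Klf3 at 32.3 against 150 CPM, Satb1 at 65.3 against 254 CPM and S100a6 at 37.6 against 154 CPM. Ly6c2 and S100a6 were set apart, with cecal dendritic cells at 2738 CPM and cecal macrophages at 1099 CPM. A Klf2 UMI was found in 8.30% of small intestine and 27.1% of cecal T cells after thinning. B cells carried Klf2 more often, in 53.2% and 86.9% of cells, so they give no background for it. They held a mean of 1.83 and 5.16 Klf2 UMIs after thinning, beside 0.144 and 0.961 in T cells. Their part in the Klf2 values of T cells was not tested.

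**Figure D2:**
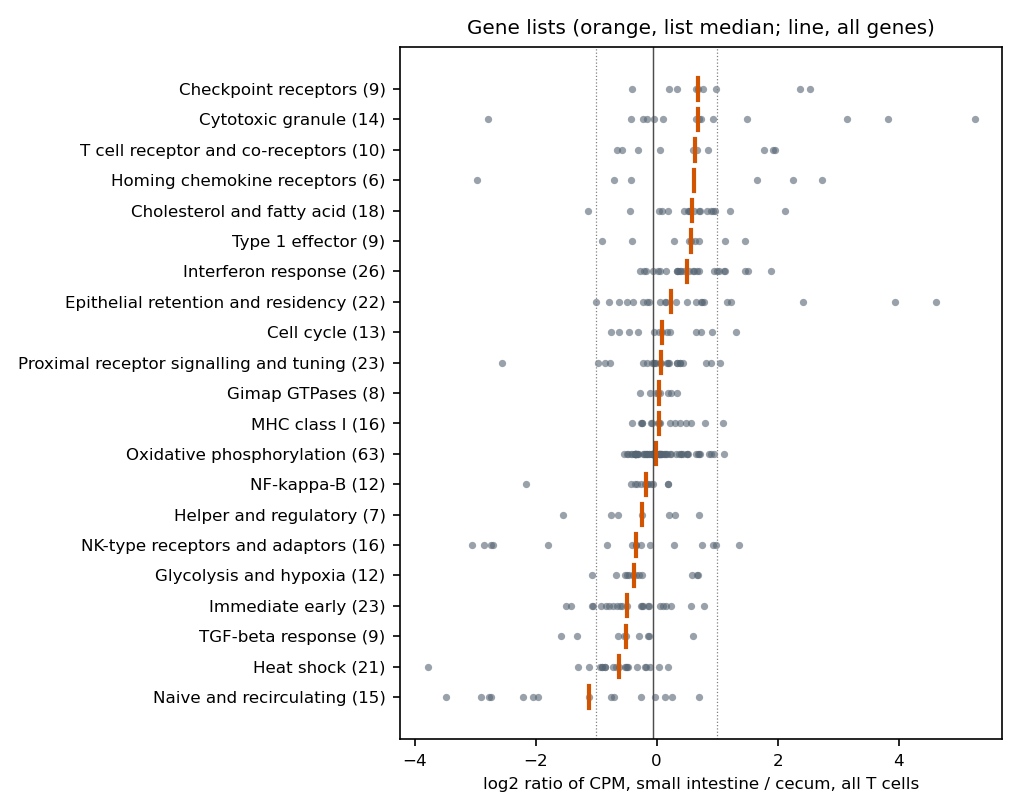
Log2 ratio of CPM, small intestine over cecum, for each tested gene of 21 lists (points), with the list median (orange bar), the median of all genes tested (solid line at -0.06) and 2-fold limits (dotted lines). The naive and recirculating list has the lowest median, -1.11, and the oxidative phosphorylation genes cluster around 0.

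Natural-killer-type receptors were lower in the small intestine for 5 of 16 tested genes and higher for 1. Klra7, which encodes an inhibitory receptor of the Ly49 family for MHC class I, on chromosome 6 (130218605 to 130233322), stood at 65.7 CPM in the small intestine and 475 CPM in the cecum, 7.24-fold lower (6.47 to 8.13). Klra6 and Klra1, members of the same family, stood at 31.0 against 202 CPM and 16.7 against 111 CPM. The family members are close copies, and reads shared between them could be split, so the single values are uncertain. A UMI of any Klra gene was found in 13.4% of small intestine and 39.8% of cecal T cells after thinning, beside 2.13% and 1.58% of B cells without CD3 UMIs. Klrk1, the gene of the activating receptor NKG2D, stood at 18.6 and 155 CPM, and Klre1 was the fifth lower gene, at 39.7 and 138 CPM. Both were set apart, with natural killer cells of the cecum at 1089 CPM of Klrk1 and 848 CPM of Klre1. Tyrobp, which encodes the DAP12 signalling adaptor, was the member that was higher, at 1230 and 481 CPM, and Klra5 stood at 123 and 64.7 CPM.

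Of 10 tested receptor and co-receptor genes 3 were at least 2-fold higher in the small intestine, namely Cd8a, Tcrg-C1 and Tcrg-C3, and 0 were lower. Cd8a, the CD8 alpha chain gene on chromosome 6 (71373427 to 71379171), stood at 1621 CPM in the small intestine and 429.6 in the cecum, a ratio of 3.77 (3.61 to 3.95). After thinning, 66.0% and 26.7% of T cells held Cd8a, against 2.13% and 0.450% of B cells without CD3 UMIs. Cd8b1, the beta chain found on conventional CD8 T cells and set apart here, was held by 3.52% and 2.70%, and Cd4 by 2.72% and 0.791%. No UMI of Cd8a, Cd8b1 or Cd4 was found in 30.4% of small intestine T cells (28.4 to 32.5) and 71.4% of cecal T cells (69.8 to 73.0). The gamma chain constant gene Tcrg-C1 stood at 286 and 83.9 CPM, a log2 ratio of 1.77 that was 0.63 with both receptor groups weighted equally, and that of Tcrg-C3 went from 1.96 to 0.80. Neither was past 2-fold within a receptor group. Cd2, an adhesion and co-stimulation gene on chromosome 3 (101275908 to 101287939), stood at 39.7 and 233 CPM, 5.88-fold lower in the small intestine (5.07 to 6.84), and the co-stimulatory receptor gene Cd28 at 91.8 and 269.6 CPM. Cd2 was the lower member of 23 tested receptor signalling genes. Lck, the kinase that starts receptor signalling, stood at 651 and 617 CPM.

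The variable segments of the receptor genes are near copies of each other, so their single values are uncertain, and none reached the level for testing among the 6 at the ends of the ranking. The highest ratios were those of Trav15n-2 (36 and 5 UMIs in the small intestine and cecum), Trav15d-1-dv6d-1 (66 and 11 UMIs) and Tcrg-V7 (144 and 24 UMIs). Of the Tcrg-V7 UMIs, 135 and 10 were in cells with Trdc. The lowest were Trav9-1 (7 and 16 UMIs), Trav13-1 (7 and 14 UMIs) and Trbv12-2 (24 and 46 UMIs), and the intervals of all 3 included a ratio of 1.

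Among interferon-response genes, 7 of 26 tested passed 2-fold upward in the small intestine and 0 downward, and the list median was 0.49 in log2. The shares over all genes tested were 4.11% upward and 3.05% downward. Gbp2, a guanylate-binding protein gene, stood at 73.2 CPM in the small intestine and 25.8 CPM in the cecum, and Igtp, Parp14 and Ly6a, the last of which was set apart, were among the others past 2-fold. Ifng, the gene of interferon gamma itself, stood at 79.4 and 148 CPM, and its log2 ratio was -1.45 in Trdc-positive and -0.17 in Trdc-negative cells. Of 18 tested genes of cholesterol and fatty acid metabolism 2 were at least 2-fold higher and 1 was lower. Fdft1, which makes squalene, stood at 66.2 and 28.7 CPM, and the fatty acid carrier Fabp5 at 34.1 and 74.5 CPM.

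A minority of acute signalling and stress genes were at least 2-fold lower in the small intestine, beside 3.05% of all genes tested. Nfkbia, which encodes the inhibitor of NF-kappa-B and is itself induced by it, stood at 304 CPM in the small intestine and 1356 CPM in the cecum, 4.46-fold lower (4.22 to 4.71). It was the lower one of 12 tested NF-kappa-B genes, and 0 were at least 2-fold higher. Of 23 tested immediate early genes 4 were at least 2-fold lower, among them Dusp2, a phosphatase gene at 91.0 and 242 CPM, and Ier5 at 262 and 742 CPM, while Fos stood at 1496 and 1767 CPM. Of 21 tested heat shock genes 3 were at least 2-fold lower. Hspb1, a small heat shock protein gene, stood at 3.87 and 53.3 CPM, 13.8-fold lower (8.77 to 22.9), and Hspa1a, the inducible HSP70 gene, at 813 and 1761 CPM.

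Of 9 tested TGF-beta response genes 2 were at least 2-fold lower in the small intestine and 0 were higher. Over all genes tested 3.05% were lower and 4.11% were higher. Smad7, the inhibitory SMAD gene, stood at 342 CPM in the small intestine and 1027 CPM in the cecum, and Tgif1, which encodes a SMAD co-repressor, at 60.0 and 149 CPM. Id3, which encodes an inhibitor of E proteins, stood at 75.3 and 342 CPM. Ramp1, part of the receptor for the neuropeptide CGRP, stood at 7.17 and 69.3 CPM, Nrgn, a calmodulin-binding protein gene, at 5.42 and 55.9 CPM, and Sox4, a transcription factor gene, at 7.75 and 55.7 CPM. Cldn10, a claudin gene that earlier results of these data had drawn attention to, stood at 12.0 and 56.7 CPM, and the myosin light chain gene Myl1, below the level for testing, had 11 and 261 UMIs.

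Among 63 tested oxidative phosphorylation genes 1 passed 2-fold upward and 0 passed downward, around a median of -0.01 in log2. Of the 8 Gimap GTPase genes, which support T cell survival, 0 differed by 2-fold, and their log2 ratios ran from -0.28 to 0.34. Of 12 tested glycolysis and hypoxia genes 0 were at least 2-fold higher and 1 was lower, with a median of -0.37, and of 9 tested type 1 effector genes 2 were higher and 0 lower, with a median of 0.57. Of 13 tested cell cycle genes 1, Mki67, was higher, at 84.8 and 34.2 CPM. Mki67 was set apart, with small intestine B cells at 756 CPM, and its log2 ratio of 1.31 was 0.34 in T cells with a Cd8a UMI, 0.39 in Trdc-positive cells and 2.42 without the deepest 2% of barcodes, and the cell with most Mki67 held 7.53% and 11.8% of its UMIs. A UMI of any of Mki67, Top2a was found in 7.55% of small intestine and 2.50% of cecal T cells after thinning, beside 29.8% and 5.18% of B cells without CD3 UMIs. Of 7 tested helper and regulatory genes 0 were at least 2-fold higher over all T cells and 1, Cd28, was lower. In Trdc-negative cells Cd4, the helper co-receptor gene, stood at 75.4 and 14.6 CPM, and the transcription factor gene Maf at 145 and 22.7 CPM. Below the level for testing, Foxp3, the regulatory T cell factor, had 18 and 12 UMIs, and Il17a had 0 in the small intestine and 13 in the cecum, at least 3.75-fold lower when 3 counts are allowed for the 0.

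The receptor groups were set by Trdc, the delta chain constant gene. A Trdc UMI was found in 1328 of 1988 T cells in the small intestine (66.8%) and 453 of 3088 in the cecum (14.7%), or in 53.4% and 11.6% after thinning. Because Trdc chose these groups, the shares are a description. Exactly 1 Trdc UMI was held by 157 and 114 of the Trdc-positive cells. The Trdc-negative cells include gamma delta cells whose Trdc was not captured, and Trac was held by 58.3% and 56.7% of them after thinning. Transcripts of Trac or a beta constant gene were also found in 89.2% and 91.5% of thinned Trdc-positive cells, so the groups are named by Trdc alone.

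Within Trdc-positive cells 152 of 4552 tested genes were at least 2-fold higher in the small intestine (3.34%) and 131 were lower (2.88%). Within Trdc-negative cells 184 of 4575 tested genes were higher (4.02%) and 118 were lower (2.58%). Of 4334 genes tested in both groups, 89 were at least 2-fold higher in both and 74 were lower in both. A further 43 and 75 were higher in Trdc-positive or Trdc-negative cells alone, and 42 and 20 were lower in one of them alone. The single gene past 2-fold in opposite directions was Cd6. It encodes a receptor that tunes T cell receptor signals and stood at 24.4 and 57.2 CPM in Trdc-positive cells and at 129 and 57.6 CPM in Trdc-negative cells.

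**Figure D3:**
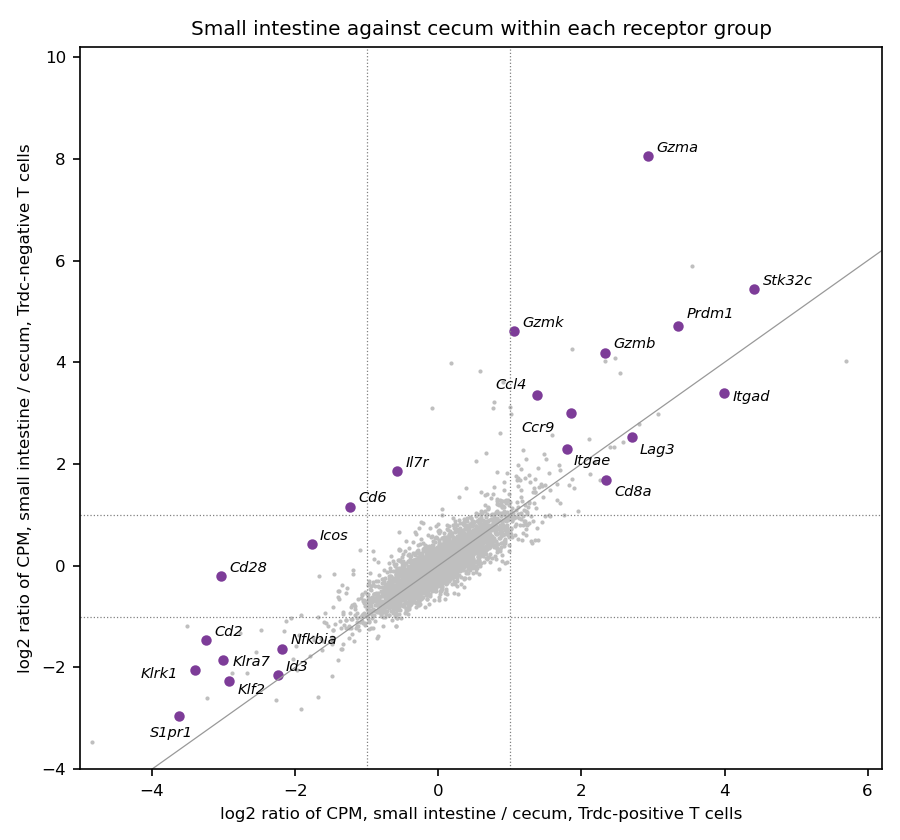
Log2 ratio of CPM, small intestine over cecum, within Trdc-positive T cells (x axis) and Trdc-negative T cells (y axis), 1 point per gene tested in both groups, with the line of equal ratios and 2-fold limits (dotted). Lag3 (2.70 and 2.53) and Id3 (-2.25 and -2.15) lie near the line, while Gzma (2.93 and 8.06) and Gzmk (1.06 and 4.62) lie far above it. Cd28 (-3.03 and -0.21), Cd6, Icos and Il7r lie to its left.

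The Gzma difference was far larger in Trdc-negative cells. In Trdc-positive cells Gzma stood at 29580.1 CPM in the small intestine and 3879 in the cecum, a ratio of 7.63 (7.38 to 7.88). In Trdc-negative cells it stood at 20353 and 76.5 CPM, a ratio of 266 (241 to 295). The 2 log2 ratios, 2.93 and 8.06, differed by -5.13 (-5.28 to -4.97). Cecal Gzma was thus held mostly by the Trdc-positive cells, with 3795 of its 4176 UMIs in 453 cells. Trdc-negative cells of the cecum held a Gzma UMI in 0.734% of thinned cells (0.442 to 1.14), with cecal B cells at 0.225%, and those of the small intestine in 53.6% (49.7 to 57.5). Trdc-positive cells held one in 72.4% and 13.0%.

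Gzmb, Gzmk and Ccl4 had the same order. The log2 ratios in Trdc-positive and Trdc-negative cells were 2.33 and 4.19 for Gzmb, 1.06 and 4.62 for Gzmk, and 1.39 and 3.36 for Ccl4. The Gzmk ratios rest on 37 and 13 cecal UMIs. Within the cecum, Trdc-positive cells exceeded Trdc-negative cells by a log2 ratio of 2.43 for Gzmb and 2.12 for Ccl4, and within the small intestine by 0.57 and 0.15.

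**Figure D4:**
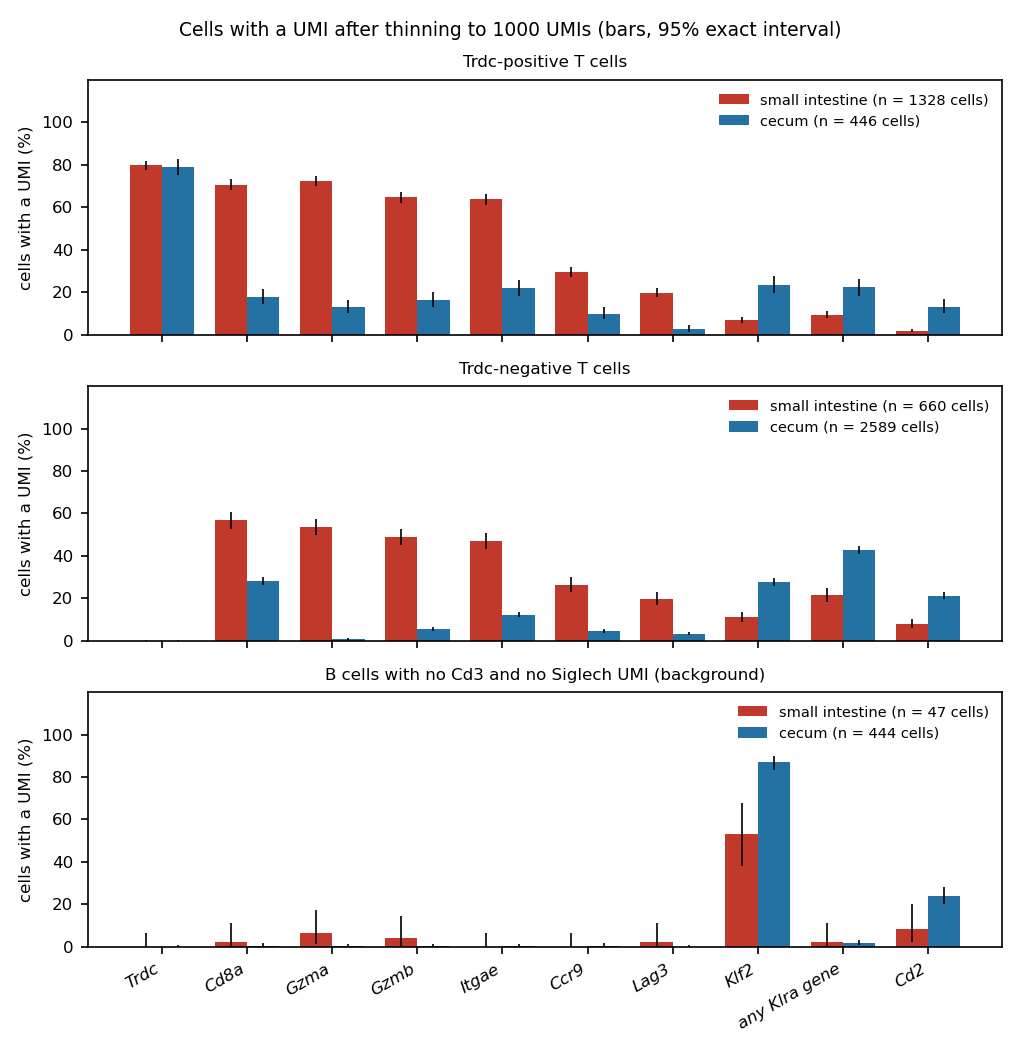
Percentage of cells holding the transcript once each was thinned to 1000 UMIs, in Trdc-positive T cells, Trdc-negative T cells and B cells with no CD3 or Siglech UMI, for the small intestine (red) and cecum (blue), with exact 95% intervals from 1 library per tissue. Gzma is held by 72.4% and 53.6% of the small intestine receptor groups and by 13.0% and 0.734% of the cecal ones, while Klf2 is commoner in the cecum and commonest in B cells.

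Several retention and checkpoint genes were at least 2-fold higher in the small intestine in both receptor groups. Itgae stood at 1043 and 298 CPM in Trdc-positive cells, a log2 ratio of 1.80, and at 774 and 157 CPM in Trdc-negative cells, a log2 ratio of 2.30. The log2 ratios were 2.70 and 2.53 for Lag3, 1.21 and 1.19 for Itga1, and 3.08 and 2.99 for Hip1, and the difference between the groups had an interval that included 0 for these 3. Prdm1 had log2 ratios of 3.35 and 4.71, and Stk32c 4.42 and 5.44, and for both the interval of the difference again included 0. Cd8a differed more in the Trdc-positive cells, with log2 ratios of 2.35 and 1.69, a difference of 0.66 (0.48 to 0.84).

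Of the genes that were lower, Klf2 stood at 120.0 and 912 CPM in Trdc-positive cells and at 204 and 985 CPM in Trdc-negative cells. S1pr1 stood at 5.62 and 69.5 CPM and at 10.6 and 82.3 CPM. Klra7 stood at 30.4 and 245 CPM and at 144 and 521 CPM. All 3 were at least 2-fold lower in both groups. Cd28 was different: it stood at 19.95 and 164 CPM in Trdc-positive cells, 8.20-fold lower in the small intestine (6.16 to 11.0), and at 251 and 290.4 CPM in Trdc-negative cells. Its difference over all T cells therefore did not hold at 2-fold among Trdc-negative cells. Cd2 was lower in both, 9.52-fold and 2.74-fold. Il7r, the receptor gene for the survival cytokine IL-7, stood at 48.6 and 72.6 CPM in Trdc-positive cells and at 217 and 59.8 CPM in Trdc-negative cells, and the co-stimulatory gene Icos at 22.2 and 75.6 CPM and at 137 and 102 CPM. Within the small intestine Trdc-positive cells were lower than Trdc-negative cells by a log2 ratio of -3.65 for Cd28 and -3.33 for Cd5, a negative regulator of receptor signalling, and within the cecum by -0.83 and -0.93.

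List counts were alike in the 2 receptor groups for most programs. Over all genes tested 3.34% were higher and 2.88% lower in Trdc-positive cells, and 4.02% and 2.58% in Trdc-negative cells. Residency genes were at least 2-fold higher for 5 of 22 in each group, and recirculation genes were lower for 8 of 15 and 7 of 15. Among the recirculation genes Il7r was at least 2-fold higher in Trdc-negative cells, and Lgals1 was lower in Trdc-positive cells alone. Tcf7, lower over all T cells, was among the lower genes of neither group. Interferon-response genes were higher for 5 of 25 in Trdc-positive and 9 of 27 in Trdc-negative cells, with medians of 0.37 and 0.73. Heat shock genes were lower for 3 of 21 and 3 of 20. Markers of other cells were higher in both groups as well. In Trdc-positive cells these were 2 of 4 tested dendritic markers (Ccr9 and Itgax) and 3 of 4 tested plasma cell markers. In Trdc-negative cells they were 3 of 5 (Ccr9, Itgax and Siglech) and 4 of 5. Ccr9 and Itgax are also described above among homing and retention genes. The dendritic markers Bst2 and Irf8 had log2 ratios of -0.12 and 0.39 in Trdc-positive cells. Of 6 tested B cell markers 1 (Igkc) was at least 2-fold higher in Trdc-positive cells and 5 (Igkc, Cd74, H2-Aa, H2-Ab1 and H2-Eb1) in Trdc-negative cells. Their part in the interferon values was not tested.

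When each receptor group was split by a Cd8a UMI, the cells numbered 1137 and 119 in the small intestine and cecum with both transcripts, 191 and 334 with Trdc alone, 461 and 1002 with Cd8a alone and 199 and 1633 with neither. Gzma was higher in the small intestine in all 4 classes. It stood at 31693.5 and 9881 CPM where both were present, at 15202 and 1186 CPM with Trdc alone, at 23200.1 and 139.5 CPM with Cd8a alone and at 12968 and 32.4 CPM with neither. The cecal levels were thus spread far more widely over the 4 classes than those of the small intestine. Itgae, Klf2 and Klra7 kept their direction in each class by at least 2-fold. Ccr9 did so in 3 classes and stood at 383 and 201 CPM in cells with both transcripts. Gzmk stood at 84.1 and 89.1 CPM in cells with both transcripts, a ratio of 0.94 (0.63 to 1.46). With Trdc alone it stood at 43.9 and 14.8 CPM.

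**Figure D5:**
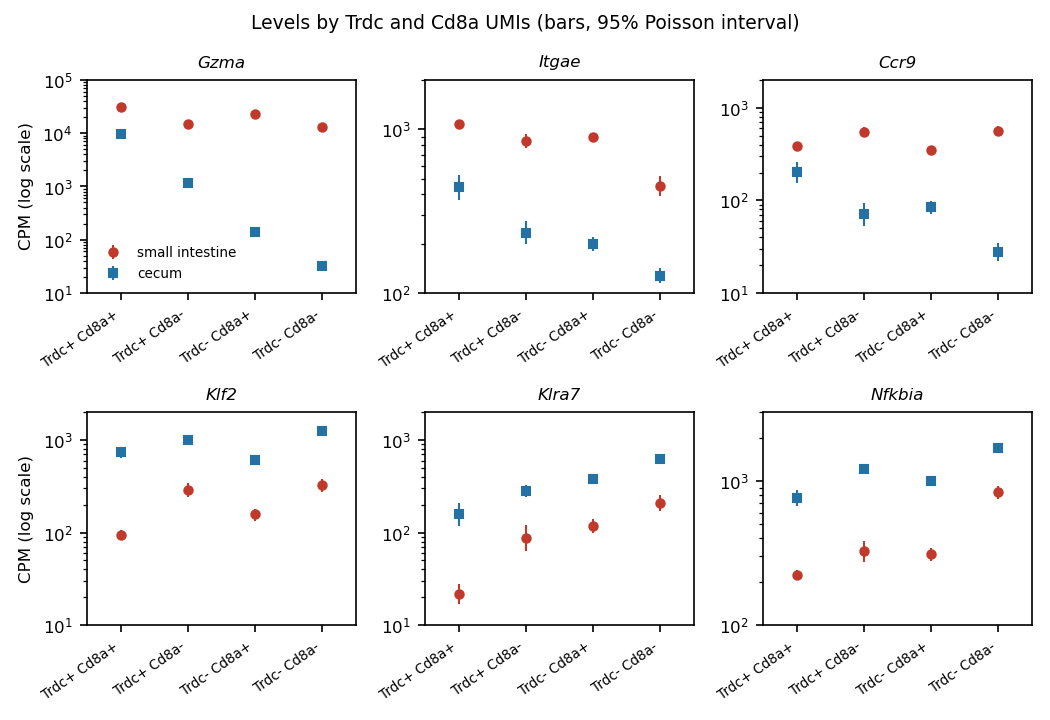
Levels of 6 genes in the 4 classes of T cells made by a Trdc and a Cd8a UMI, in CPM on log axes, for the small intestine (circles) and cecum (squares), with 95% Poisson intervals and 1 library per tissue. Gzma in the cecum spans 9881 to 32.4 CPM across the classes, and Klf2, Klra7 and Nfkbia are higher in the cecum in every class.

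T cells of the other 2 libraries, chosen by the same rule (2837 of the colon and 203 of the stomach), are given side by side. Gzma stood at 1599.9 CPM in colon and 290.0 in stomach T cells, Itgae at 264 and 113 CPM, Ccr9 at 61.3 and 22.6 CPM, and Prdm1 at 8.63 and 28.2 CPM. Each lay below the small intestine value. Klf2 stood at 750.4 and 388 CPM and Klra7 at 368 and 296 CPM, between those of the small intestine and cecum. Not all genes lower in the small intestine lay between. Klre1, which was set apart, stood at 160 and 286 CPM, both above the cecal 138 CPM. Cd2 stood at 182 CPM in colon and 418 CPM in stomach T cells, beside 233 CPM in the cecum.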

How the data were processed

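Single-cell RNA was measured in 1 library per tissue, and small intestine and cecum were compared. The deposited files hold raw UMI counts per gene and barcode; Cell Ranger, Seurat 3.0.0 and GRCm38/mm10 are named in the submitters' processing notes. The T cell members and all gene lists were chosen with earlier results of these data known. UMIs were summed over T cells, scaled to CPM and compared gene by gene as ratios with exact conditional binomial 95% intervals. Poisson intervals were used for levels and Clopper-Pearson intervals for shares; all cover counting error only, since 1 library per side allows no test. A gene was tested at 50 CPM on either side and 20 UMIs in total, and called at 2-fold. A count of 0 was bounded at 3 counts. Named genes were the 15 highest and 15 lowest ratios over all T cells whose interval excluded 1, the 10 highest and lowest in each receptor group, 24 fixed genes and up to 4 members of each list with the largest differences; ribosomal, mitochondrial, immunoglobulin, sex-linked and set-apart genes were passed over in the rankings. Other called list members and the comparison genes Cd6, Cd69, Fos, Il7r, Klra5, Klrb1c, Lck and Runx3 were named after their values were seen. Doublets were not called; barcodes with UMIs of excluded genes were dropped (550 of 2538 with CD3 in the small intestine, 385 of 3473 in the cecum). Python 3.11.15, numpy 2.4.6, scipy 1.17.1 and pandas 2.3.3 were used, and the code was tested on simulated data. Some genes are not reported here.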

Additional observations from a re-analysis of the deposited data

Results flagged for a closer look

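For 17 genes the tissue difference ran in opposite directions in the receptor groups, and for 4 of them it was at least 2-fold in one group. The difference given for these 4 is the log2 ratio of small intestine over cecum in Trdc-positive cells minus that in Trdc-negative cells. For Il7r it was -2.44 (-2.89 to -1.98), and for Cd6 it was -2.39 (-2.94 to -1.84). For the co-stimulatory gene Icos it was -2.19 (-2.70 to -1.68). For the galectin gene Lgals1 it was -1.40 (-1.75 to -1.04), and that gene was among those set apart because another cell class held far more of it. The intervals cover counting error only, and with 1 library per tissue the difference between receptor groups was not tested across replicates.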

How the results depend on the processing

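With 1 library per side no replicate could be left out. No paired analysis was possible because the tissues have 1 library each, and the labels do not say whether they came from the same animals. Counts of genes at least 2-fold higher and lower in all T cells were 336 and 271 at 20 CPM, 52 and 39 at 200 CPM, 841 and 738 with no CPM minimum, 532 and 501 at 1.5-fold, and 70 and 52 at 3-fold. In Trdc-positive cells they were 336 and 288, 32 and 34, 751 and 510, 524 and 538, and 42 and 41, and 198 were lower after thinning. In Trdc-negative cells they were 375 and 256, 48 and 30, 710 and 687, 547 and 459, and 76 and 35. The share of T cells with Trdc was 38.4% and 8.42% at 500 UMIs and 66.8% and 14.7% without thinning. For at least 2 Trdc UMIs after thinning it was 32.5% and 7.05%. Without thinning 1171 of 1988 and 339 of 3088 T cells held at least 2. Of 77 called named genes, 62 were at least 2-fold under all 12 settings, and 0 of the 77 changed sign. Of genes not past 2-fold, Cd8b1 went from 0.61 to -0.11 and Top2a from 0.91 to -0.01 in T cells with a Cd8a UMI. With both receptor groups weighted equally, the log2 ratio was 3.66 for Gzma, 2.83 for Gzmb, 3.74 for Prdm1 and -0.74 for Cd28, which was no longer past 2-fold. Without exclusion genes that of Klf2 was -2.13. The cause of these shifts was not tested.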
